A study of Mus musculus with 40 samples.

Results

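The genes described here build, fill and police the endoplasmic reticulum of the mouse mammary gland. They are a list of 42 genes of signal peptide recognition and translocation, signal peptide cleavage, N-glycosylation, chaperoning, disulfide formation and the unfolded protein response, and all 42 were found by symbol among the 22552 genes of the deposited expression table. Of these, 41 reached 1 FPKM (fragments scaled by transcript length and by library size) or more in all 12 groups. The exception, Srp54a, ranged from 0.317 to 0.869 FPKM. It has near-identical copies in the mouse genome (Srp54b and Srp54c) among which reads can be split, so its level is uncertain and it was left out of the counts below.

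Poly(A) RNA of whole mammary tissue from outbred mice was sequenced in 31 libraries that fall into 12 groups, 5 groups of 2 libraries and 7 of 3. EZH1 and EZH2, the enzymes that methylate histone H3 at lysine 27, were removed singly, or EZH2 with 1 of the 2 copies of Ezh1: controls carried MMTV-Cre alone (labelled MMTV-Cre), Ezh1 KO mice were E1-/-, Ezh2 KO mice carried floxed Ezh2 with that Cre (labelled Ezh2f/f;control), and the combined genotype was E1+/-;E2f/f;control, called Ezh1 het Ezh2 KO below. Control and Ezh2 KO females were taken as virgins of 12 weeks, untreated or 2 hours after an intraperitoneal injection of prolactin at 5 µg per g body weight. All 4 genotypes were taken at days 13 and 18 of pregnancy (p13 and p18). The Cre transgene, line A, is driven by the MMTV promoter and deletes Ezh2 in mammary cells, so that cells of the gland without Cre keep the gene, whereas the E1-/- genotype carries no floxed allele and, by its label, no Cre. By the protocol, the untreated virgin gland was a left mammary fat pad, taken at estrus under anaesthesia, and the prolactin gland was the one on the right, taken later, so the injection cannot be told apart from the side, the anaesthesia and the earlier surgery. The 9 ChIP samples were not analysed here.

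The table gives 1 value per gene and group, pooled by the authors in a way not given in the sources used here, at a depth that the values do not show, so no SD, n or p-value could be attached to any value, and whether a difference exceeds the spread between mice could not be tested. In lists without group names, the virgin values are in the order control, Ezh2 KO, control with prolactin and Ezh2 KO with prolactin, and those of p13 and p18 in the order control, Ezh1 KO, Ezh2 KO and Ezh1 het Ezh2 KO. In whole tissue, fewer cells of a type and less RNA per cell cannot be told apart. Differences are given on the scale of log2(FPKM + 1), first group minus second, which understates the change of low genes, and folds are plain ratios of FPKM. Counts of members are set beside the percentage of the 14273 genes with at least 1 FPKM in a group that lay as far apart. The cutoffs were 1.5-fold and, more strictly, 1 log2 unit, both on the log2(FPKM + 1) scale. Ezh1 stood at 14.7 FPKM in control and 1.06 in Ezh1 KO at p13, and at 7.37 and 0.627 at p18. In Ezh1 het Ezh2 KO it stood at 6.17 at p13 and 3.41 at p18, with Ezh2 at 9.54 and 6.24. Ezh2 stood at 12.9 FPKM in control and 13.7 in the group labelled Ezh2 KO at p13, and at 10.0 and 6.41 at p18. In virgin glands it stood at 4.98 in control and 5.55 in the group labelled Ezh2 KO, and at 6.74 and 4.64 after prolactin. The value covers the whole gene in whole tissue, and in the group labelled Ezh2 KO it was not below control in untreated virgins and at p13. Ezh2 KO below thus stands for the libraries labelled so. Luminal markers were present in all groups (Krt8 from 152 to 399.5 FPKM), summed FPKM over all genes ran from 581531 to 1151970, and 15 milk protein genes took from 0.0718% of that sum in virgin control to 47.4% in p18 control. Markers of skeletal muscle summed to 1.51% in p13 control and 0.390% in p13 Ezh1 KO, and to at most 0.0654% elsewhere.

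Proteins bound for secretion carry a signal peptide that the signal recognition particle binds at the ribosome and delivers to the SEC61 channel of the endoplasmic reticulum membrane. Inside, the signal peptide is cut off, sugars are added, and chaperones and disulfide isomerases fold the chain. When unfolded protein accumulates, the sensors IRE1, ATF6 and PERK raise chaperones, translocation factors and degradation factors through the transcription factors XBP1, ATF6 and ATF4, a programme that secretory cells, including the milk-producing alveolar cells of late pregnancy, also use to enlarge the compartment.

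The promoters of the members were searched for the ER stress response element, the site through which ATF6 and XBP1 act on chaperone genes. RefSeq start sites of build GRCm38.p6 were matched for 36 of the 42 members (Ero1l under its newer name), and windows from 250 bases before to 50 after each start were searched on both strands. Sec61a1, Ssr2, Spcs3, Hyou1, Manf and Atf6 had no window. The element, CCAAT then 9 free bases then CCACG, lay in 7 of 36 members, or 19.4%, against 37 of 27025 genes with a window, or 0.137%. The 7 members were 6 chaperones or cochaperones (Hspa5, Hsp90b1, Calr, Canx, Dnajc3 and Creld2) and the disulfide isomerase Pdia6, and Hsp90b1 held 2 copies. The element is known as a site of chaperone genes, which are on this list, so these shares are a description and no test. The 8 copies are shown because they let the shared ends and the free middle be compared. Each is written 5′ to 3′ in the element's own direction, with the fixed bases in capitals and GRCm38.p6 coordinates.
Hspa5, chr2:34772025-34772043: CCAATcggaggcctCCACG
Hsp90b1, chr10:86705638-86705656: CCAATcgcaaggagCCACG
Hsp90b1, chr10:86705533-86705551: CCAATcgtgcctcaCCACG
Calr, chr8:84847075-84847093: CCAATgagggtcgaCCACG
Canx, chr11:50325800-50325818: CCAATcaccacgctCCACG
Dnajc3, chr14:118937827-118937845: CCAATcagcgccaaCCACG
Creld2, chr15:88819520-88819538: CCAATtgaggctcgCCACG
Pdia6, chr12:17266491-17266509: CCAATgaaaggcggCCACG
The first base of a copy lay between 65 bases (Hspa5) and 212 bases (Hsp90b1) before the start, 5 copies read along the gene and 3 against it, and the 9 middle bases differed in all 8. The 250 bases before the start of the 2 main chaperone genes, in the direction of the gene and with the fixed bases in capitals, show the element near the start in Hspa5 and the 2 opposed copies in Hsp90b1.
Hspa5, chr2:34771840-34772089, plus strand: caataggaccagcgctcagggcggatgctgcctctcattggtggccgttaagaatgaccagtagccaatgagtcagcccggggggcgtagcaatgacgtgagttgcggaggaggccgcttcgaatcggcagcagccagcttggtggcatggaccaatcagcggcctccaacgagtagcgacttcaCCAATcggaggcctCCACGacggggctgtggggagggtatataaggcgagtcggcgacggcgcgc
Hsp90b1, chr10:86705445-86705694, minus strand: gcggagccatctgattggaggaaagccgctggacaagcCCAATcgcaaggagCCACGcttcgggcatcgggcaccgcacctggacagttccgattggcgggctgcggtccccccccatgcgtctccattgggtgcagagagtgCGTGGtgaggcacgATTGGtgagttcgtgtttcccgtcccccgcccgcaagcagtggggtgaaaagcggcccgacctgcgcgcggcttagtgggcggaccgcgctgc
Other motifs were not more frequent among members than among all genes with a window. The unfolded protein response element TGACGTGG lay in 0 of 36 (0.714% of genes), the C/EBP-ATF element TGATGNAA in 1, Herpud1 (4.51%), and the STAT5 GAS element TTCNNNGAA in 1, Sec61g (9.55%). A match of letters is no evidence of binding, and its absence in these windows says nothing about the factor.

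On the deposited scale, the highest value lay in p18 Ezh1 het Ezh2 KO for 19 of 41 members (5.60% of all genes), in p18 control for 6 (4.12%) and in p13 control for 6 (13.6%). The lowest lay in p18 Ezh2 KO for 12 (9.09%), virgin Ezh2 KO for 11 (8.52%) and virgin Ezh2 KO with prolactin for 10 (9.65%). Which group was highest depended on the scaling, since p18 Ezh1 het Ezh2 KO had the largest summed FPKM of the 12. At a common sum p13 control was highest for 16 members (12.7% of all genes) and p18 Ezh1 het Ezh2 KO for 4 (0.401%). Without milk proteins p18 control was highest for 25 (10.2%) and p18 Ezh1 het Ezh2 KO for 4 (2.45%). Which group was lowest depended on the scaling too. At a common sum p18 Ezh2 KO was lowest for 0 members (0.746%), virgin Ezh2 KO for 1 (3.22%) and p18 Ezh1 KO for 23 (15.3%). Without milk proteins these counts were 4 (1.70%), 3 (4.93%) and 5 (8.90%). The orders of groups given below are those of the deposited values. The ratio of highest to lowest was largest for Ern1 (5.20), Ssr4 (5.05), Sec61b (4.69) and Sdf2l1 (4.49) and smallest for Rpn2 (1.47) and Srp14 (1.55). By the mean of the 12 values, Calr (378 FPKM) and Xbp1 (318) were the most abundant and Ern1 (3.59) the least.

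**Figure D1:**
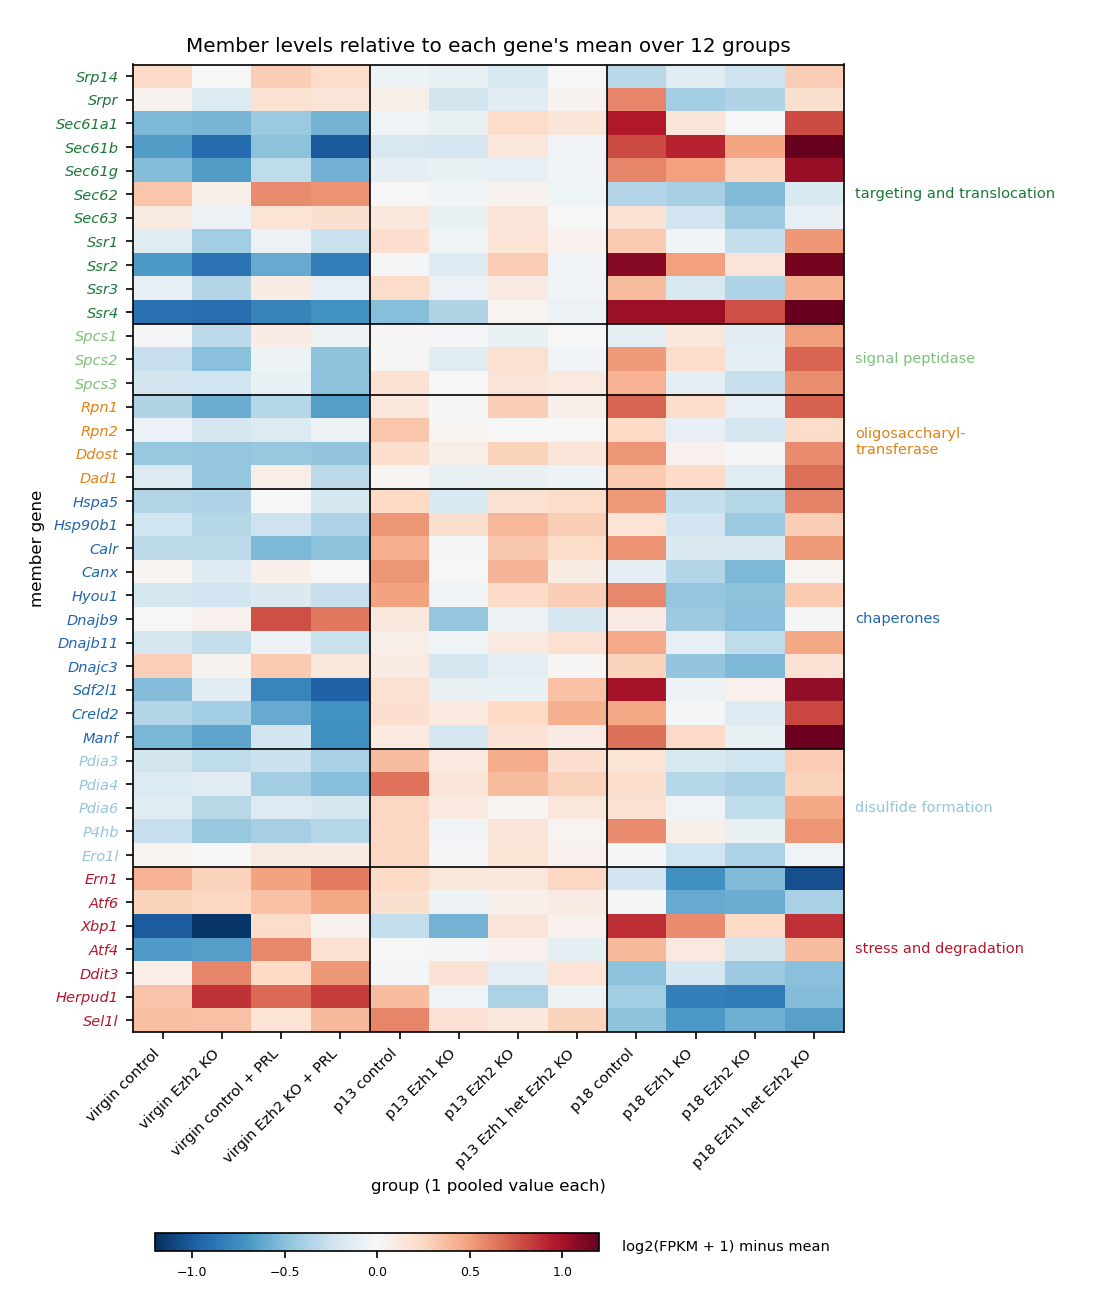
Levels of the 41 members (rows, grouped by role) in the 12 groups (columns, 1 pooled value each), as log2(FPKM + 1) minus the gene's mean over the groups; red is above and blue below that mean. The columns p18 control and p18 Ezh1 het Ezh2 KO are red for most translocation and chaperone genes, the neighbouring p18 Ezh1 KO and Ezh2 KO columns are paler or blue, and the sensors at the bottom are blue at p18.

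The translocation channel stood highest at p18. Its subunits are SEC61 alpha, the pore itself (Sec61a1), beta (Sec61b) and gamma (Sec61g). In virgin glands Sec61a1 stood at 46.1 FPKM in control, 45.7 in Ezh2 KO, and 49.3 and 45.2 with prolactin. At p13 it stood at 65.2 in control, 63.3 in Ezh1 KO, 78.6 in Ezh2 KO and, for Ezh1 het Ezh2 KO, 75, and at p18 at 132, 74.6, 67.8 and 117 in the same order. The 2 single mutants at p18 thus stayed within the range of p13, whereas control and Ezh1 het Ezh2 KO lay above every other group. Sec61b, the most abundant of the translocation genes by mean, stood at 146, 121, 164 and 115 FPKM in the virgin groups in the same order, at 202, 201, 255 and 225 at p13, and at 399, 441, 322 and 539 at p18. Sec61g stood at 98.0, 87.8, 114 and 94.2 in virgin glands, at 131, 133, 132 and 138 at p13, and at 212, 199, 168 and 291 at p18. For both, all 4 p18 groups lay above all other groups, unlike for the pore subunit.

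The translocon-associated protein complex, which sits beside the channel and helps weak signal peptides in, divided the p18 groups in 2 ways. Ssr2 stood at 116, 101, 123 and 106 FPKM in virgin glands, at 185, 168, 232 and 184 at p13, and at 401 in control, 265 in Ezh1 KO, 209 in Ezh2 KO and, for Ezh1 het Ezh2 KO, 416 at p18. Ssr4 stood at 91.8, 90.6, 98.2 and 103 in virgin glands, at 120.5, 133, 176 and 163 at p13, and at 352, 350.4, 294 and 458 at p18. Ssr4 was thus 2.92-fold higher in p18 than in p13 control, the largest of all member differences between these groups, and p18 control and Ezh1 KO stood side by side. Srp14, a protein of the signal recognition particle, ran from 113 FPKM in p18 control to 176 in p18 Ezh1 het Ezh2 KO. Ssr1 ran from 20.2 in virgin Ezh2 KO to 39.6 in p18 Ezh1 het Ezh2 KO, and Ssr3 from 104 in p18 Ezh2 KO to 182 in p18 Ezh1 het Ezh2 KO. Sec62, another channel cofactor, ran from 26.7 in p18 Ezh2 KO to 58.2 in virgin control with prolactin, so it was highest early. Sec63, a cofactor of the channel that recruits the chaperone BiP, was the least abundant translocation gene above the floor and showed no such course: it stood at 23.9, 21.0, 25 and 25.5 FPKM in virgin glands, at 24.2, 20.8, 24.8 and 22.2 at p13, and at 25.2, 18.7, 16.1 and 20.6 at p18. Srpr, the receptor of the signal recognition particle, stood at 90.8 FPKM in p18 control, 69.1 in Ezh1 het Ezh2 KO, 45.2 in Ezh1 KO and 46.7 in Ezh2 KO, and the single mutants lay below all other groups.

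Signal peptidase, which cuts the signal peptide off, and the oligosaccharyltransferase, which transfers the glycan, had a median ratio of highest to lowest of 2.13 each, beside 2.18 for translocation genes. Spcs1, the most abundant signal peptidase member, stood at 121, 99.0, 131 and 118 FPKM in virgin glands, at 124, 121, 117 and 124 at p13, and at 115, 135, 112 and 175 at p18, highest in p18 Ezh1 het Ezh2 KO. Spcs3, a subunit needed for cleavage and the least abundant, stood at 21.6, 21.4, 23.9 and 17.8 in virgin glands, at 28.9, 25.3, 28.3 and 27.6 at p13, and at 34.2, 23.4, 20.8 and 37.9 at p18. Of the oligosaccharyltransferase subunits, Dad1 stood at 165, 134, 194 and 149 FPKM in virgin glands, at 188, 174, 175 and 177 at p13, and at 231, 218, 167 and 294 at p18. Dad1 was thus lowest in virgin Ezh2 KO and highest in p18 Ezh1 het Ezh2 KO. Rpn1 stood at 49.7, 42.2, 50.4 and 40.2 in virgin glands, at 70.1, 63.2, 79.0 and 67.1 at p13, and at 105, 74.3, 59.8 and 106 at p18. Spcs2, a further signal peptidase subunit, ran from 37.3 in virgin Ezh2 KO to 87.0 in p18 Ezh1 het Ezh2 KO, Ddost from 64.5 in virgin Ezh2 KO with prolactin to 134 in p18 Ezh1 het Ezh2 KO, and Rpn2 from 112 in p18 Ezh2 KO to 164 in p13 control. For Spcs3 and Rpn1, p18 Ezh1 KO and Ezh2 KO lay below p18 control and Ezh1 het Ezh2 KO by more than the p13 groups differed among themselves.

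Chaperones had the lowest role median in both single mutants at p18, -0.75 in Ezh2 KO and -0.56 in Ezh1 KO against control. Hspa5 encodes BiP, the HSP70 of the compartment and the keeper of the stress sensors. It stood at 200.3 FPKM in virgin control, 198 in virgin Ezh2 KO, and 256 and 222 with prolactin, at 304, 227, 291 and 299 at p13, and at 367 in control, 210.5 in Ezh1 KO, 202 in Ezh2 KO and, for Ezh1 het Ezh2 KO, 387 at p18. The 2 single mutants at p18 stood near the untreated virgin level. Hyou1, the nucleotide exchange factor of BiP, stood at 18.9, 18.6, 19.4 and 18.0 in virgin glands, at 31.0, 21.3, 25.9 and 27.3 at p13, and at 33.4, 15.6, 15.3 and 27.6 at p18, so the single mutants lay below even the virgin groups. Sdf2l1, which works with the BiP cochaperone DNAJB11, stood at 11.1, 14.9, 9.05 and 7.83 in virgin glands, at 18.7, 15.3, 15.4 and 21.2 at p13, and at 33.5, 15.6, 17.0 and 35.2 at p18. The level in p18 control was 2.15-fold that of Ezh1 KO and 1.98-fold that of Ezh2 KO.

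Manf, a secreted stress-induced factor that binds BiP, stood at 31.0, 29.2, 39.2 and 27.2 FPKM in virgin glands, at 49.9, 39.6, 51.7 and 49.1 at p13, and at 73.3, 53.9, 43.2 and 105 at p18. It was the member farthest apart between Ezh1 het Ezh2 KO and Ezh2 KO at p18 (2.43-fold, 1.26 log2 units). Calr, the calcium-binding lectin chaperone calreticulin, was the most abundant member and stood at 293, 294, 251 and 260.4 in virgin glands, at 496, 362, 457 and 425 at p13, and at 531, 324, 323 and 521 at p18. In both single mutants at p18 Calr was below every p13 group and above the virgin range. Dnajb11, Dnajc3, Canx, Hsp90b1 and Dnajb9 were all lowest in p18 Ezh2 KO, at 33.9, 19.6, 61.7, 176 and 18.9 FPKM. Their highest values were 58.4 in p18 Ezh1 het Ezh2 KO for Dnajb11, 36.2 in virgin control with prolactin for Dnajc3, 130.0 and 346 in p13 control for Canx and Hsp90b1, and 47.1 in virgin control with prolactin for Dnajb9. Creld2 ran from 15.1 in virgin Ezh2 KO with prolactin to 45.7 in p18 Ezh1 het Ezh2 KO.

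Among the genes of disulfide formation, P4hb, the protein disulfide isomerase, stood at 233, 206, 215 and 223 FPKM in virgin glands, at 336, 276, 314 and 288 at p13, and at 420.3, 294, 266 and 409 at p18. Ero1l, the oxidase that recharges it, varied 1.60-fold in all: it stood at 13.2, 13.0, 14 and 13.9 in virgin glands, at 15.6, 12.9, 14.7 and 13.5 at p13, and at 12.8, 10.8, 9.75 and 12.6 at p18. The isomerase Pdia3 ran from 164 in virgin Ezh2 KO with prolactin to 292 in p13 Ezh2 KO, Pdia4 from 45.6 in virgin Ezh2 KO with prolactin to 103 in p13 control, and Pdia6 from 95.1 in virgin Ezh2 KO to 166 in p18 Ezh1 het Ezh2 KO.

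The sensors and transcription factors did not follow one course. Xbp1, the transcription factor activated by IRE1, stood at 145 and 128 FPKM in untreated virgin glands, at 338 and 299 after prolactin, at 237, 196, 324 and 302 at p13, and at 539, 431, 342 and 536 at p18. It was highest in p18 control and p18 Ezh1 het Ezh2 KO, and the value in p18 Ezh2 KO was near those of p13 Ezh2 KO and of prolactin-treated virgins. The value does not separate its spliced from its unspliced form. Ern1, which encodes IRE1 itself, went the other way, at 4.79, 4.27, 5.07 and 5.68 in virgin glands, at 4.13, 3.76, 3.79 and 4.17 at p13, and at 2.70, 1.60, 2.02 and 1.09 at p18, a level near the floor of 1 FPKM. Atf6, another sensor, ran from 5.28 in p18 Ezh1 KO to 12.1 in virgin Ezh2 KO with prolactin. Herpud1 and Sel1l, components of the degradation machinery of the compartment, also stood lowest at p18. Herpud1 stood at 41.9, 60.5, 53.0 and 59.6 in virgin glands, at 42.7, 31.5, 25 and 31.5 at p13, and at 24.4, 18.2, 17.8 and 22.5 at p18. Sel1l stood at 28.2, 28.0, 24.6 and 28.8 in virgin glands, at 33.3, 24.7, 23.9 and 26.4 at p13, and at 15.4, 13.1, 14.2 and 13.5 at p18, where the 4 genotypes lay close together.

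Ddit3 encodes CHOP, the transcription factor tied to death under prolonged stress. It stood at 15.9, 22.9, 17.8 and 21.8 FPKM in virgin glands, at 14.7, 16.9, 13.8 and 16.9 at p13, and at 10.3, 12.9, 10.8 and 10.3 at p18, so all p18 groups lay below all virgin groups. Atf4, the transcription factor of the integrated stress response, stood at 65.2 and 66.2 in untreated virgin glands, at 157 and 119 after prolactin, at 104, 104, 109 and 97.6 at p13, and at 138, 114, 89.8 and 136 at p18.

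At p18, late pregnancy, each mutant group, named by its label, was set against control. In Ezh2 KO, 23 of 41 members lay 1.5-fold or more below control (6.58% of all genes) and none above (6.52%), with a median member difference of -0.61 beside -0.00 over all genes. Hyou1 passed 1 log2 unit, at -1.07 (2.14% of all genes were as far below). The 23 were 10 of 11 chaperones, 6 of 11 translocation genes, 2 of 3 signal peptidase genes, 2 of 5 disulfide genes, 2 of 7 stress and degradation genes, and 1 of 4 oligosaccharyltransferase genes. After Hyou1 the largest were Sec61a1 (-0.95), Sdf2l1 (-0.94), Srpr (-0.94), Ssr2 (-0.94) and Hspa5 (-0.86). The least different were Srp14, Spcs1 and Ddit3, within 0.08 log2 units of control. At a common sum Sec61b, Sec62, Ssr4, Spcs1 and Sel1l turned to above control, and without milk proteins Srp14 and Ddit3 turned to below it. The 7 members with the ER stress response element shown above had a median of -0.62, and the 28 with a window but no element -0.50, so low values were found in both.

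In p18 Ezh1 KO, 8 members lay 1.5-fold or more below control (5.6% of all genes) and none above (4.76%). The median difference was -0.41 beside 0.00 over all genes. Sdf2l1 (-1.06) and Hyou1 (-1.05) passed 1 log2 unit (1.39%). The other 6 were Srpr (-0.99), Sec61a1 (-0.82), Hspa5 (-0.80), Dnajc3 (-0.75), Calr (-0.71) and Ssr2 (-0.60), which are 3 translocation genes and, with Sdf2l1 and Hyou1, 5 chaperones. All 11 chaperones, all 5 disulfide genes and all 4 oligosaccharyltransferase genes were below control in both single mutants, as deposited and under the 4 other scalings. As deposited, 6927 of 14273 genes were below control in Ezh1 KO and 7175 in Ezh2 KO. These signs did not set the single mutants apart under every scaling. Without milk proteins, Ezh1 het Ezh2 KO was below control in 10 of 11 chaperones, 5 of 5 disulfide genes and 4 of 4 oligosaccharyltransferase genes. The comparisons of Ezh1 KO and Ezh2 KO share the same control value, so their likeness is no separate result.

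Ezh1 het Ezh2 KO, which by its label lacks Ezh2 and 1 copy of Ezh1, did not show the low values of Ezh2 KO. Against control, 2 members were 1.5-fold or more higher (7.38% of all genes), Srp14 (0.63) and Spcs1 (0.60). Ern1 was lower (-0.82, 6.5%), and the member median was 0.05 beside 0 over all genes. In the same group 13 of 14 ubiquitous genes were above control (median 0.32) and 12 of 14 above Ezh2 KO (median 0.23). Set against Ezh2 KO, 26 members were higher (4.65%) and none lower (4.38%), with a median of 0.66, and Manf (1.26) and Sdf2l1 (1.01) passed 1 log2 unit (1.16%). With Ezh1 het Ezh2 KO in place of control as the reference, a comparison added after the data were seen, 13 members were 1.5-fold or more lower in Ezh1 KO (3.38%) and none higher (4.35%), and Sdf2l1 (-1.12) passed 1 log2 unit (0.974%). Both single mutants lay below both other groups in 35 of 41 members, beside 19.3% of all genes, and above both in Ddit3 alone, beside 17.7%. This order of groups was not among the planned comparisons, so its counts describe these values and test nothing. The same order, both lowest, held for 51 of the 80 other pathway genes, 11 of 15 milk protein genes, 3 of 12 luminal markers, 8 of 10 B and plasma cell markers, 0 of 13 adipocyte markers and 3 of 14 ubiquitous genes. The members outside this order were Srp14, Sec61b, Spcs1, Ern1, Sel1l and Ddit3.

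**Figure D2:**
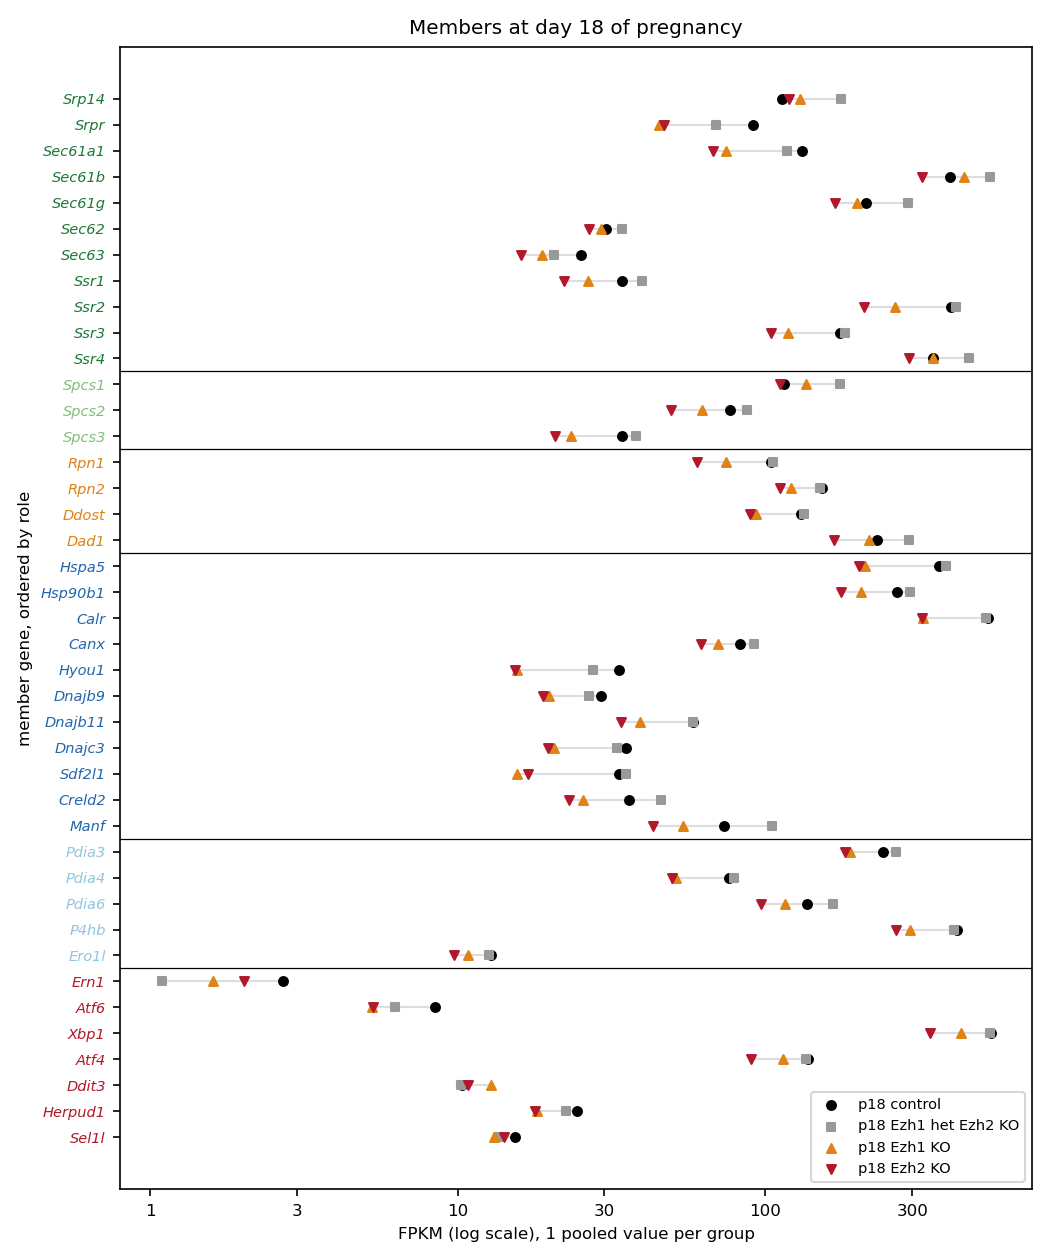
FPKM (log scale) of the 41 members in the 4 groups of p18, 1 pooled value per group, with genes ordered and coloured by role. For 35 members the Ezh1 KO and Ezh2 KO points both lie to the left of the control and Ezh1 het Ezh2 KO points, as for Hspa5 at 210.5 and 202 against 367 and 387. This order was not among the planned comparisons.

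These p18 counts depended on how groups were scaled to each other. Milk protein messages took 47.4% of the summed FPKM in control, 42% in Ezh1 KO, 30.2% in Ezh2 KO and, for Ezh1 het Ezh2 KO, 41.4%. Rescaled to a common sum, the median of all genes moved to 0.21 in Ezh2 KO against control. The count of lower members there fell to 5 (2.85% of all genes), whereas without the milk proteins in the sum it was 25 (8.99%). In Ezh1 KO the count was 13 (6.10%) and 23 (11.3%). Between Ezh1 het Ezh2 KO and Ezh2 KO the count of higher members was 1 at a common sum (1.02% of all genes), with 1 lower (25.6%). Without milk proteins it was 5 (1.88%), with 1 lower (12.1%). In Ezh1 het Ezh2 KO against control the split of 2 higher and 1 lower became 0 and 2 at a common sum and 0 and 5 without milk proteins. The distance of the member median from the median of all genes ranged over the scalings from -0.51 to -0.63 in Ezh2 KO, from -0.41 to -0.47 in Ezh1 KO, from -0.05 to 0.05 in Ezh1 het Ezh2 KO, and from 0.50 to 0.66 between the last group and Ezh2 KO, where the median of all genes was -0.39 at a common sum. The order with both single mutants lowest held for 27 members at a common sum (3.88% of all genes) and for 35 without milk proteins (11.1%).

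Other tissue markers differed at p18 as well, not all in step with the members. In Ezh2 KO against control the 15 milk protein genes were all lower (median -1.12), the 13 adipocyte markers all higher (median 0.98; 1.80% of summed FPKM against 0.667%), the 5 erythroid markers all higher (0.184% against 0.00554%), and the 12 luminal markers about level (median -0.02, none past 1 log2 unit). In Ezh1 KO the medians were -0.44 for milk proteins, 0.71 for adipocyte markers, 2.11 for erythroid markers and 0.15 for luminal markers. Muscle markers were higher in Ezh1 KO (12 of 12, median 1.31) and lower in Ezh2 KO (11 of 12, median -1.62). In Ezh1 het Ezh2 KO the medians were -0.07 for milk proteins, 0.45 for adipocyte (12 of 13 higher), 0.29 for erythroid, 0.08 for luminal and -1.36 for muscle markers. Plasma cells are also rich in this machinery: their markers summed to 0.00300% in control, 0.00116% in Ezh1 KO, 0.00198% in Ezh2 KO and, for Ezh1 het Ezh2 KO, 0.0125%, with Igj at 22.1, 6.15, 10.8 and 113 FPKM, and no marker of the list was at 0 in any group. Their part in the member differences was not tested.

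**Figure D3:**
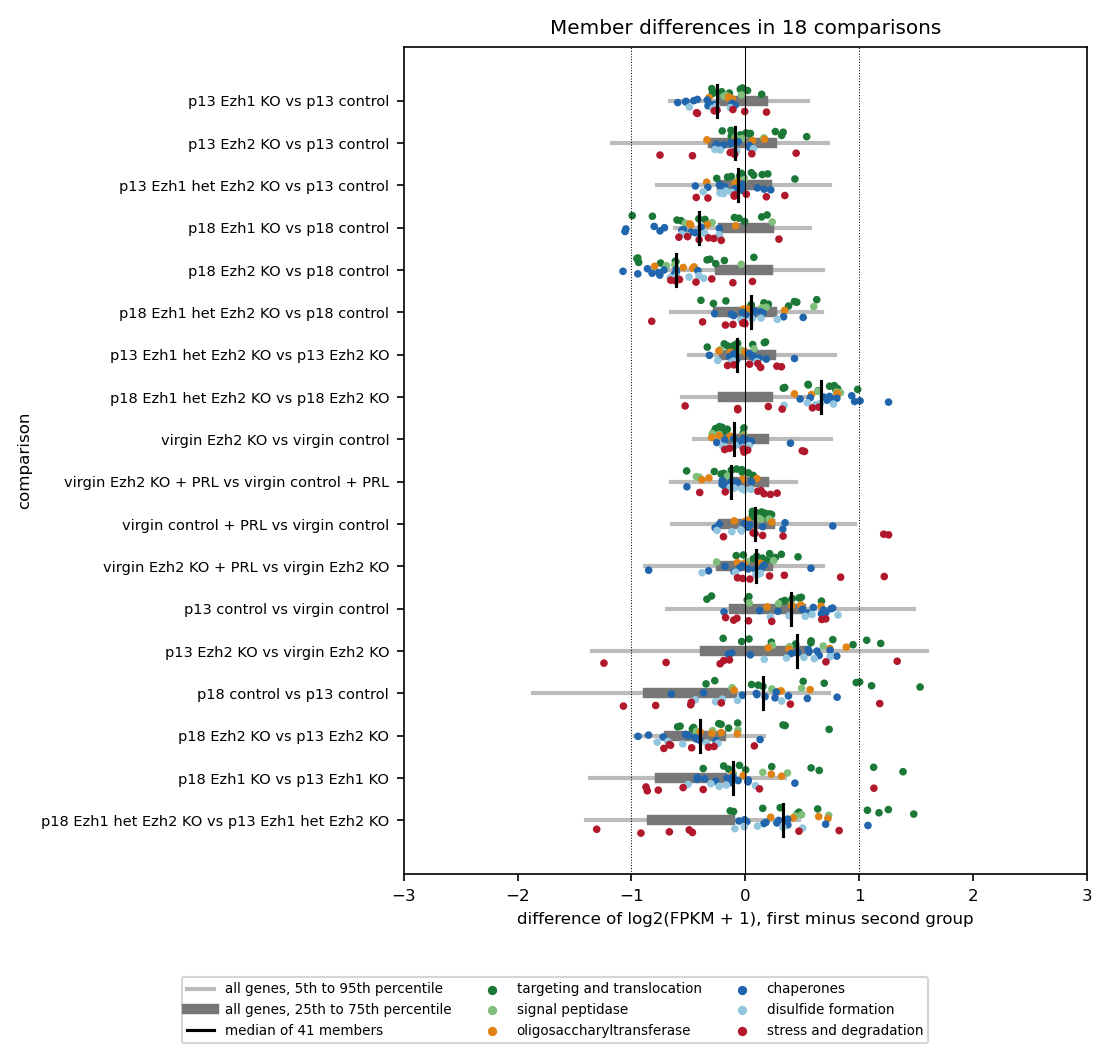
Differences of log2(FPKM + 1), first minus second group, of the 41 members (points coloured by role, black bar their median) in 18 comparisons, with the middle 50% (dark grey) and 90% (light grey) of all 14273 genes. Most members of p18 Ezh2 KO lie left of the dark grey bar (median -0.61) and most of p18 Ezh1 het Ezh2 KO against Ezh2 KO right of it (0.66), whereas the medians of the p13 comparisons with control run from -0.24 to -0.07.

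At p13 no genotype stood apart from control to the same degree. In Ezh1 KO the median member difference was -0.24 and 1 member, Dnajb9, a BiP cochaperone, was 1.5-fold or more lower, at 19.4 FPKM against 29.8 (6.02% of all genes; none higher, 4.51%). In the group labelled Ezh2 KO the median was -0.09 and 1 member, Herpud1, was lower at 25 against 42.7 (-0.75; 13.5%; none higher, 7.37%). In Ezh1 het Ezh2 KO the median was -0.07, with no member 1.5-fold apart in either direction (7.08% higher and 7.73% lower over all genes). Between Ezh1 het Ezh2 KO and Ezh2 KO none was apart either (8.64% higher and 3.22% lower), with a median of -0.07. Chaperones were the lowest role in p13 Ezh1 KO, with a median of -0.33 and all 11 below control. The milk proteins moved far more: their median difference was 1.83 in Ezh1 het Ezh2 KO and 2.90 in Ezh2 KO, with 14 and 15 of 15 higher. Member levels were thus near control at p13 where milk messages were above it, but other tissue markers differed as well. In Ezh2 KO all 12 luminal markers were higher (median 0.72), all 13 adipocyte markers and all 12 muscle markers lower (-1.34 and -8.42), and 4 of 5 erythroid markers lower (-2.35). In Ezh1 het Ezh2 KO the medians were -0.03 for luminal, -0.70 for adipocyte, -8.14 for muscle and 1.63 for B and plasma cell markers, and in Ezh1 KO 0.21, -0.82, -1.96 and 0.07, with 4.31 for hepatocyte markers. Their part in the member differences was not tested.

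From virgin to p13, the differences in control were largest among chaperones and isomerases. In all, 12 members were 1.5-fold or more higher at p13 (20.2% of all genes) and none lower (6.35%). The median was 0.40 beside 0.17 over all genes. None was 1 log2 unit or more higher (9.12% of all genes) or lower (2.76%). The 12 were 6 of 11 chaperones, 2 of 5 disulfide genes, 2 stress and degradation genes, 1 translocation gene and 1 oligosaccharyltransferase gene. They were led by Pdia4 (0.82, 58.2 to 103 FPKM), Hsp90b1 (0.77) and Calr (0.76). Rescaling lowered the count to 5 at a common sum (16.7% of all genes), 2 at a common upper quartile (14.3%) and 6 without milk proteins (16.8%). Each of these is a share of members under that of all genes. In Ezh2 KO, 15 were higher (23.1%) and 2 lower (17.6%), with Xbp1 (1.34), Ssr2 (1.19) and Sec61b (1.07) past 1 log2 unit (11%) and Herpud1 below it (-1.24; 9.11%). At a common sum this split was 4 and 2 (14.3% and 27.1% of all genes). Tissue markers moved with this stage too. In control the medians were 6.87 for muscle (12 of 12 higher), 2.38 for milk proteins, 1.88 for erythroid, 0.27 for luminal and -0.46 for adipocyte markers. In Ezh2 KO they were 3.57 for milk proteins, 1.81 for luminal, -1.72 for adipocyte (13 of 13 lower) and -3.29 for B and plasma cell markers. Their part in the virgin-to-p13 values was not tested.

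From p13 to p18 translocation genes and Xbp1 led in control. There, 7 members were 1.5-fold or more higher (6.19% of all genes) and 3 lower (40.3%), with a median of 0.16 beside -0.46 over all genes. Ssr4 (1.54), Xbp1 (1.18), Ssr2 (1.11) and Sec61a1 (1.01) passed 1 log2 unit upward (3.55%), and Sel1l (-1.07) downward (19.1%). The other higher members were Sec61b, Sdf2l1 and Sec61g and the other lower ones Herpud1 and Canx, a membrane-bound lectin chaperone. Of the 11 translocation genes 5 were higher, and the role medians were 0.51 for translocation, 0.30 for oligosaccharyltransferase, 0.23 for signal peptidase, 0.18 for chaperones, -0.20 for disulfide formation and -0.47 for stress and degradation.

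The same interval differed by genotype. In Ezh1 het Ezh2 KO, 11 members were higher (3.8%) and 3 lower (41.6%), with a median of 0.33, and Ssr4 (1.48), Sec61b (1.26), Ssr2 (1.18), Manf (1.08) and Sec61g (1.07) passed 1 log2 unit upward (1.66%) and Ern1 (-1.30) downward (16%). In Ezh1 KO, 4 were higher (3.02%) and 3 lower (38.9%), with a median of -0.11, and Ssr4 (1.39), Sec61b (1.13) and Xbp1 (1.13) passed 1 log2 unit (1.56%). In Ezh2 KO only Ssr4 was higher (0.74; 1.79%) and 9 were lower (34.2%), with a median of -0.40 beside -0.45 over all genes. Canx (-0.94), Hsp90b1 (-0.85) and Pdia4 (-0.77) were farthest below p13 there. Chaperones had a median of 0.18 in control, 0.28 in Ezh1 het Ezh2 KO, -0.13 in Ezh1 KO and -0.44 in Ezh2 KO.

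These stage splits turned with the scaling. At a common sum, they were 2 higher and 15 lower in control, 1 and 16 in Ezh1 het Ezh2 KO, 1 and 28 in Ezh1 KO, and 1 and 13 in Ezh2 KO. Of all genes, 71.9%, 82.8%, 82.7% and 44.6% were lower there in the same order, and 3.39%, 1.05%, 1.16% and 1.56% higher. At a common upper quartile they were 24 and 0, 25 and 1, 12 and 0, and 4 and 0. At that scaling, 5.05% (Ezh2 KO) to 13.1% (control) of all genes were higher. From 4.05% (Ezh2 KO) to 21.1% (Ezh1 het Ezh2 KO) were lower. The median of all genes in control moved from -0.46 to -0.90 at a common sum and -0.04 at a common upper quartile. Relative to that median, and over the scalings, members lay higher by 0.53 to 0.71 in control, 0.65 to 0.90 in Ezh1 het Ezh2 KO, 0.25 to 0.45 in Ezh1 KO and 0.03 to 0.13 in Ezh2 KO. Without a filter on low values, these distances were 0.29, 0.49, 0.10 and -0.20, and with a pseudocount of 5 they were 0.43, 0.60, 0.18 and -0.06, so the direction in Ezh2 KO turned. The share of members in the summed FPKM outside milk proteins was 0.715% in p13 control and 1.16% in p18 control, 0.735% and 0.980% in Ezh1 het Ezh2 KO, 0.643% and 0.788% in Ezh1 KO, and 0.762% and 0.732% in Ezh2 KO. Muscle markers at p13, high in control and Ezh1 KO as given above, and adipocyte markers, with a median of -2.56 from p13 to p18 in control and -0.09 in Ezh2 KO, moved with the stage. From p13 to p18 luminal markers were lower in 12 of 12 in Ezh2 KO (median -0.65) and had medians of 0.05 in control, 0.00 in Ezh1 KO and 0.08 in Ezh1 het Ezh2 KO. Erythroid markers had medians of -4.52 in control, -1.36 in Ezh1 KO, -3.49 in Ezh1 het Ezh2 KO and 2.01 in Ezh2 KO. The part of these markers in the stage values was not tested.

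**Figure D4:**
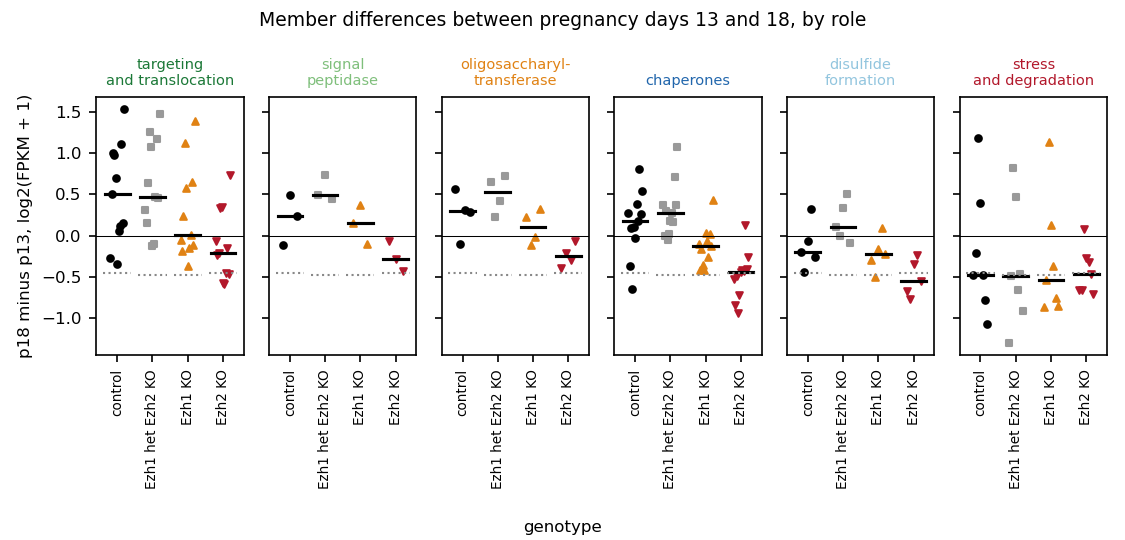
Difference of log2(FPKM + 1) between p18 and p13 for the members of each role (panels) in the 4 genotypes; points are genes, black bars role medians and dotted grey lines the median of all genes. Chaperone medians run from 0.28 in Ezh1 het Ezh2 KO and 0.18 in control to -0.13 in Ezh1 KO and -0.44 in Ezh2 KO.

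After prolactin, 2 transcription factors and 1 cochaperone stood higher in control, a share of members under that of all genes, and the rest of the list stayed under the cutoff. In control virgins, 2 hours after the injection, 3 members were 1.5-fold or more higher (9.92% of all genes) and none lower (6%), with a median of 0.08. Atf4 stood at 157 FPKM against 65.2 (2.42-fold, 1.26 log2 units), Xbp1 at 338 against 145 (2.33-fold, 1.22) and Dnajb9, a target of XBP1, at 47.1 against 27.2 (1.73-fold); the first 2 passed 1 log2 unit (4.76%). Hspa5 stood at 256 against 200.3, Ddit3 at 17.8 against 15.9 and Sdf2l1 at 9.05 against 11.1, all under 1.5-fold.

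In virgins labelled Ezh2 KO, Xbp1 and Atf4 were also past the cutoff after prolactin, a share of members under that of all genes. Xbp1 stood at 299 FPKM against 128 (2.34-fold, 1.22 log2 units; 2.75% of all genes were as far above) and Atf4 at 119 against 66.2 (1.80-fold), 2 members in all past 1.5-fold upward (6.12%). Dnajb9 stood at 42.7 against 28.3 (1.51-fold), just under the cutoff on the log2(FPKM + 1) scale. Sdf2l1 was lower, at 7.83 against 14.9 (9.3%). Between genotypes no member was 1.5-fold apart, neither untreated (7.15% of all genes higher in Ezh2 KO and 3.06% lower; median member difference -0.10) nor after prolactin (2.58% and 5.76%; median -0.12). Luminal markers were all lower in untreated Ezh2 KO (12 of 12, median -0.76), and B and plasma cell markers differed in opposite directions after prolactin, by a median of 2.45 in control and -3.56 in Ezh2 KO. The part of these markers in the prolactin values was not tested.

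**Figure D5:**
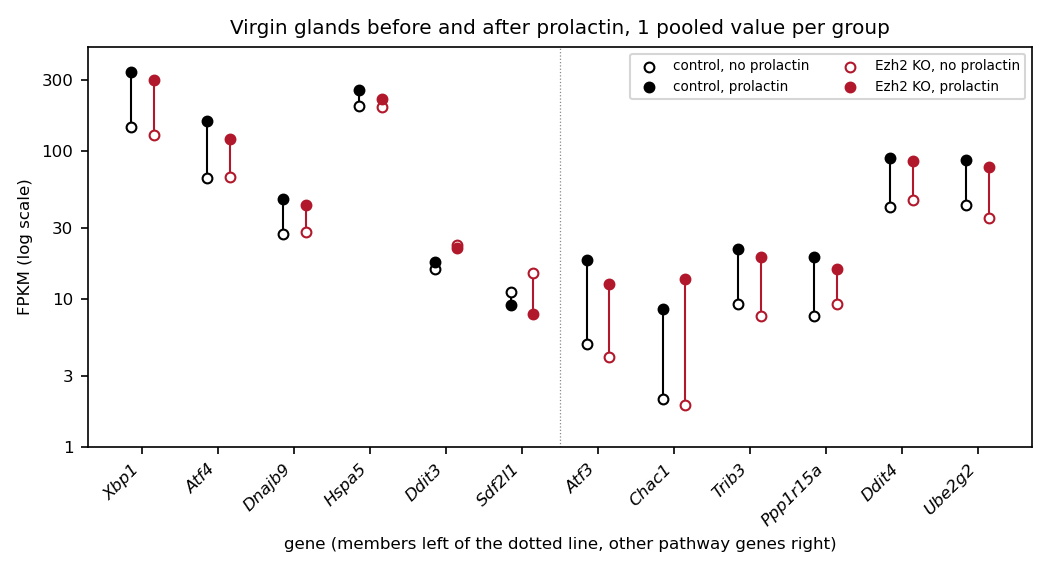
FPKM (log scale) in virgin glands without (open) and with prolactin (filled) in control (black) and Ezh2 KO (red), 1 pooled value per group. Xbp1, Atf4 and Dnajb9 among members and Atf3, Chac1 and Trib3 among other pathway genes are higher with prolactin in both genotypes, whereas Hspa5 (200.3 to 256 in control) and Ddit3 (15.9 to 17.8) differ by less than 1.5-fold.

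Beyond the members, 80 other genes of the same pathways were read. In p18 Ezh2 KO, 23 of 80 were 1.5-fold or more below control, beside 6.58% of all genes, and none above, with a median of -0.31. In Ezh1 KO 22 were below, beside 5.6%, and none above, with a median of -0.30. At a common sum, 2 were above and 8 below in Ezh2 KO (15.05% and 2.85% of all genes). In Ezh1 KO this split was 0 and 23 (3.49% and 6.10%). Without milk proteins the splits were 0 and 30 in Ezh2 KO (5.64% and 8.99%) and 0 and 31 in Ezh1 KO (2.60% and 11.3%). The genes of transport from the compartment to the Golgi led: Sec23b, an inner coat subunit of COPII vesicles, stood at 77.5 FPKM in control, 30.1 in Ezh1 KO, 23.0 in Ezh2 KO and, for Ezh1 het Ezh2 KO, 49.6. Lman1, a cargo receptor of those vesicles, stood at 65.2, 27.7, 28.3 and 48.4, Sec24d, another coat subunit, at 29.9, 11.5, 13.3 and 19, and Srprb, the partner of the signal recognition particle receptor, at 42.3, 19.7, 17.6 and 34.9. As deposited, all 14 transport genes were below control in both single mutants, 7 of them 1.5-fold or more in Ezh2 KO and 6 in Ezh1 KO. Derl3, a degradation factor that plasma cells also express, stood at 5.64, 2.74, 2.16 and 8.16. The 12 genes of the integrated stress response had none 1.5-fold apart in Ezh2 KO and 2 lower in Ezh1 KO. In Ezh1 het Ezh2 KO 1 of the 80 was 1.5-fold or more higher than control (7.38% of all genes) and 5 lower (6.5%). Against Ezh2 KO 22 were higher (4.65%) and 1 lower (4.38%). The latter split turned with the scaling, to 1 higher and 11 lower at a common sum and 7 and 5 without milk proteins, and the former became 0 and 14, and 0 and 24.

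After prolactin, 6 of the 80 were 1 log2 unit or more higher in control, beside 4.76% of all genes, and 4 in Ezh2 KO, beside 2.75%. None was as far lower in either (1.72% and 4.08% of all genes). With a common sum 3 were higher in each, and 2 were lower in Ezh2 KO. The largest were the ATF4-linked genes Atf3, a stress transcription factor (4.93 to 18.3 FPKM in control, 4.01 to 12.5 in Ezh2 KO), Chac1, which degrades glutathione (2.11 to 8.48 and 1.90 to 13.5), and, in control, Ppp1r15a, which reverses the translation block of the stress response (7.60 to 19.1), and in Ezh2 KO Trib3, a pseudokinase (7.62 to 19). Chac1 was also the one gene of the 80 past 1 log2 unit at p13, lower in all 3 mutants. It stood at 8.77 FPKM in control, 2.72 in Ezh1 KO, 1.36 in Ezh2 KO and, for Ezh1 het Ezh2 KO, 1.33. Of all genes, 2.28% were as far below control in Ezh1 KO, 3.19% in Ezh1 het Ezh2 KO and 6.59% in Ezh2 KO. The 3 comparisons, and that from virgin to p13 below, share the same p13 control value, so they are no separate results. From p13 to p18 in control 5 of the 80 were 1 log2 unit or more higher, beside 3.55% of all genes, and 6 lower, beside 19.1%. At the 1.5-fold cutoff, 10 were higher and 21 lower as deposited (6.19% and 40.3% of all genes). At a common sum this split was 5 and 45 (3.39% and 71.9%), and at a common upper quartile 28 and 5 (13.1% and 19.4%). Sec23b (24.0 to 77.5), Sec11c, a catalytic subunit of signal peptidase (64.3 to 190.2), and Fkbp14, a prolyl isomerase (14.3 to 4.69), were farthest apart. From virgin to p13 in control, 4 of the 80 were 1 log2 unit or more higher, beside 9.12% of all genes, so no excess over all genes. They were led by the membrane-bound transcription factor Creb3l1 (7.48 to 29.5), with Chac1 next (2.11 to 8.77).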

How the data were processed

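RNA-seq libraries of whole mammary tissue were deposited by the authors as 1 FPKM value per gene and group, made from 31 libraries; per the submitters' processing notes the tools were CASAVA, FastQC, Trim Galore, BWA, Bowtie, TopHat, Cufflinks, Cuffdiff and HOMER and the build mm9, with no role or version stated. How fragments were counted and libraries joined was not stated. Whole reads could not be recovered from low values (the most common ratio held for 1.79% of 1282 genes), so depth is unknown.

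Groups were read from the labels and columns matched to them by name. Values were taken as log2(FPKM + 1), keeping the 14273 genes at 1 FPKM or more in a group. Counts used cutoffs of 1 log2 unit and 1.5-fold. With 1 pooled value per group there was no test. The steps were tested on simulated data. The members, gene lists and marker lists were chosen with earlier results of these data known. By the rule for named genes, members 1 log2 unit or more apart in a comparison, the highest and lowest of each role by mean FPKM, Hspa5, Xbp1, Ddit3 and Atf4 are given in all groups, the others by range, and at most 3 other pathway genes past 1 log2 unit per comparison; further values of Srpr, Dnajb9 and other members were added after their values were seen. Alternatives were pseudocounts of 0.1 and 5, filters of none and 5 FPKM, and other scalings. Promoter windows came from RefSeq GRCm38.p6; they were matched by symbol and not by mm9 coordinates. Python 3.11.15, pandas 2.3.3, NumPy 2.4.6 and matplotlib 3.10.9 were used.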

Additional observations from a re-analysis of the deposited data

How the results depend on the processing

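No paired analysis was possible because the table holds 1 pooled value per group and no replicate columns; leaving out a library and a limma fit could not be run for the same reason. Counts of members past a cutoff were recomputed under other scalings, pseudocounts and filters: 239 values kept within 1.5 times the reported count and its direction, 69 moved and 12 changed their main direction. None of the 26 member differences past 1 log2 unit changed sign. Smaller differences did: at a common sum, 19 of 41 members changed sign for prolactin in control, 15 for p18 Ezh1 het Ezh2 KO against control, 24 from p13 to p18 in Ezh1 het Ezh2 KO, 5 for p18 Ezh2 KO and 0 for p18 Ezh1 KO. All counts below are totals of members with higher and lower in that order, as first minus second group. The share of all genes past a cutoff moved with the scaling too, so these counts alone are no results about the members. A count of 0 or 1 has little room, and 1 pooled value per group limits all of them; the cause of a change was not tested beyond the scaling itself.

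Rescaled to a common sum, counts past 1 log2 unit were 3 (1 and 2) from virgin to p13 in Ezh2 KO, and from p13 to p18 9 (0 and 9) in Ezh1 KO, 5 (0 and 5) in Ezh1 het Ezh2 KO, 3 (0 and 3) in control and 1 (0 and 1) in Ezh2 KO. At p18 they were 0 for Ezh1 het Ezh2 KO against Ezh2 KO and 0 for Ezh2 KO against control, and 2 (1 and 1) for prolactin in Ezh2 KO. Past 1.5-fold they were 0 for p13 Ezh1 KO, 6 (4 and 2) and 5 from virgin to p13 in Ezh2 KO and control, and 29 (1 and 28), 17 (1 and 16) and 17 (2 and 15) from p13 to p18 in Ezh1 KO, Ezh1 het Ezh2 KO and control. At p18 they were 5 for Ezh1 KO against Ezh1 het Ezh2 KO, 13 for Ezh1 KO, 2 (1 and 1) for Ezh1 het Ezh2 KO against Ezh2 KO, 2 (0 and 2) for it against control and 5 for Ezh2 KO, with 2 (2 and 0) in virgin Ezh2 KO.

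Without milk proteins, counts past 1 log2 unit at p18 were 5 for Ezh1 KO, 5 for Ezh2 KO, 1 (0 and 1) for Ezh1 het Ezh2 KO and 0 for it against Ezh2 KO, and 2 (1 and 1) for prolactin in Ezh2 KO. Past 1.5-fold they were 0 for p13 Ezh1 KO, 2 (1 and 1) for p13 Ezh2 KO, 6 from virgin to p13 in control, 4 (1 and 3) and 19 (18 and 1) from p13 to p18 in Ezh2 KO and control, and 2 in virgin Ezh2 KO. At p18 they were 23 for Ezh1 KO, 5 for it against Ezh1 het Ezh2 KO, 6 (5 and 1) for the latter against Ezh2 KO and 5 (0 and 5) against control. With muscle and erythroid genes also left out, chosen after seeing the data, these values were the same but for 18 (17 and 1) from p13 to p18 in control and 10 from virgin to p13 in control.

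At a common upper quartile, counts past 1 log2 unit from p13 to p18 were 5 in Ezh1 KO, 12 (11 and 1) in Ezh1 het Ezh2 KO, 1 (1 and 0) in Ezh2 KO and 11 in control, and 1 for Ezh1 het Ezh2 KO against Ezh2 KO at p18. Past 1.5-fold they were 0 for p13 Ezh1 KO, 9 (7 and 2) and 2 from virgin to p13 in Ezh2 KO and control, 1 (0 and 1) for p18 Ezh1 het Ezh2 KO, and 12, 26 (25 and 1), 4 (4 and 0) and 24 from p13 to p18 in Ezh1 KO, Ezh1 het Ezh2 KO, Ezh2 KO and control. With a pseudocount of 0.1 the count past 1 log2 unit in p18 Ezh1 het Ezh2 KO was 1. With a pseudocount of 5 it was 0 in p18 Ezh1 KO and Ezh2 KO, 1 for Ezh1 het Ezh2 KO against Ezh2 KO and 3 from p13 to p18 in control, and past 1.5-fold 0 for p13 Ezh1 KO.

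With the cutoff at 1.5-fold in place of 1 log2 unit, counts were 1 in p13 Ezh1 KO and Ezh2 KO, 17 (15 and 2) and 12 from virgin to p13 in Ezh2 KO and control, and 7 (4 and 3), 14 (11 and 3), 10 (1 and 9) and 10 (7 and 3) from p13 to p18 in Ezh1 KO, Ezh1 het Ezh2 KO, Ezh2 KO and control. At p18 they were 8 for Ezh1 KO, 3 (2 and 1) for Ezh1 het Ezh2 KO, 23 for Ezh2 KO and 26 for Ezh1 het Ezh2 KO against Ezh2 KO, and 3 (2 and 1) for prolactin in Ezh2 KO.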
